A study of Mus musculus with 14 samples.

Results

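The Krüppel-like factors are transcription factors with a shared set of zinc fingers. The transcripts of 9 of their genes, Klf2, Klf3, Klf4, Klf5, Klf6, Klf9, Klf10, Klf13 and Klf15, were followed here in mouse kidney before and after renal ischemia/reperfusion injury (IRI), in which blood flow to the kidney is stopped and then restored. The members were chosen by gene symbol, with earlier results of these data known. They are 9 of 17 Klf genes and 9 of 24411 genes in the count tables. Bulk RNA was sequenced from kidneys of male C57/B6 mice aged 8 weeks, with 4 libraries at day 0, 5 at day 1 and 5 at day 3 after the injury. No genotype or drug is named for any group, and the labels do not say whether day 0 kidneys were sham-operated or untouched. The labels number the libraries within a day and do not say that each came from a separate animal, so p-values measure the spread between these libraries, which may be technical. Each deposited library also carries a number of 1 digit or of 3 digits. All 4 day 0 libraries, day 1 replicates 3, 4 and 5 and day 3 replicates 4 and 5 have 1 digit. Day 1 replicates 1 and 2 and day 3 replicates 1, 2 and 3 have 3 digits. What the number stands for is not given in the sources used here, and it is treated as a possible batch.

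Members of the family bind GC-rich and CACCC sequences in promoters. Some switch genes on, others recruit corepressors, and many oppose each other at the same sites. In the kidney, KLF2 and KLF4 are known from endothelium, KLF4 also from podocytes, KLF5 from collecting duct and urothelium, KLF6 from injured tubules and podocytes, and KLF15 from podocytes and from amino acid and glucose metabolism. KLF9 and KLF15 are targets of the glucocorticoid receptor, and KLF10 was named for its induction by TGF-β.

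Each library held between 12485579 and 20476979 reads assigned to genes. Values are CPM, a gene's counts relative to library size after scaling by trimmed mean of M values (TMM). Proximal tubule markers identified the tissue: the 8 listed genes summed to between 12194 and 13679 CPM at day 0. The T cell genes Cd3d, Cd3e and Cd3g did not pass the filter on low counts. Libraries of the 2 kinds of number differed within day 1 and within day 3, where 2645 genes were called but 91 without replicate 5 and 73 with that day's libraries alone. The days were therefore also compared within 1 kind of number. In whole tissue, fewer cells of a type and less RNA per cell cannot be told apart.

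The sequences just before the start sites are shown for Klf6 and Klf4, the members with the largest rises at day 1, and for Klf15, the only member called lower at day 1 over all libraries. They are the 250 bases upstream of the RefSeq start on GRCm38.p6, written 5′ to 3′ on the strand of the gene. They lie at chr13:5861239-5861488 on the plus strand for Klf6, at chr4:55532476-55532725 on the minus strand for Klf4 and at chr6:90462326-90462575 on the plus strand for Klf15. Capitals mark CCAAT boxes (CCAAT or ATTGG) and the core of the cyclic AMP response element (TGACG or CGTCA).
Klf6: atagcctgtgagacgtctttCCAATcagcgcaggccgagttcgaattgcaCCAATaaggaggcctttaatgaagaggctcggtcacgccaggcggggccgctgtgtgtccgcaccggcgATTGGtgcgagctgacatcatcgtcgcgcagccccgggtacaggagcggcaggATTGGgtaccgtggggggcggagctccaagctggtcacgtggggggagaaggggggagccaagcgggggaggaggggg
Klf4: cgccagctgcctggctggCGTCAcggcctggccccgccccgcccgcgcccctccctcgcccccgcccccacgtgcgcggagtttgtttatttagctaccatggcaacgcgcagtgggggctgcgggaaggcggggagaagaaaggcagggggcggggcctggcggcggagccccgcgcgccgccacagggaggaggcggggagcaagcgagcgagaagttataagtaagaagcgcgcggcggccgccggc
Klf15: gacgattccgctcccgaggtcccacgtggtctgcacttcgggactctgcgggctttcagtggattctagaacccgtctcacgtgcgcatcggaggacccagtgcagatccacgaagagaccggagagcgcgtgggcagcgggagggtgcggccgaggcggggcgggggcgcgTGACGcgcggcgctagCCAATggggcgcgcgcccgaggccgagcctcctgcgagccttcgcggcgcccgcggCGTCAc
The Klf6 stretch held 4 CCAAT boxes and no TGACG. The Klf4 stretch held 1 TGACG and no CCAAT, and the Klf15 stretch held 2 TGACG and 1 CCAAT. No marked match overlapped another. Searched on both strands over 300 bases that also take in the first 50 of the gene, CCAAT occurred in 37.4% and TGACG in 20.8% of 32851 mouse promoters. The GC box GGGCGG, a type of site that the family itself binds, was found 1 time for Klf6, 4 times for Klf4 and 1 time for Klf15, against 35.7% of promoters with a match. The CACCC box, at 57.5% of promoters, was found for Klf15 and not in the Klf6 and Klf4 windows. The full response element TGACGTCA, at 1.79% of promoters, and the TATAAA box, at 13.6%, were in none of the 3 windows. A match to these letters is a description and not a bound site. RefSeq promoters were matched for 7 of the 9 members, and Klf5 and Klf10 had no entry.

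Before injury, Klf15 and Klf9 were the most abundant members. To compare levels between genes, CPM was divided by the length of the gene's exons in kilobases (CPM per kb). At day 0, Klf15 stood at 45.6 ± 5.87 CPM per kb (SD, n = 4) and Klf9 at 31.7 ± 1.96, followed by Klf6 at 8.43 ± 0.455, Klf2 at 6.38 ± 1.29, Klf13 at 5.72 ± 0.529, Klf10 at 3.37 ± 1.57, Klf4 at 2.20 ± 0.381, Klf3 at 1.96 ± 0.417 and Klf5 at 0.374 ± 0.249. The 4 at the top kept apart: the ranges of Klf15, Klf9, Klf6 and Klf2 did not overlap, and neither did those of Klf3 and Klf5. Klf2, Klf13, Klf10, Klf4 and Klf3 each overlapped the next in this order. Klf15 alone made up between 38.0% and 44.5% of the summed level of all 17 Klf genes at day 0, and Klf6 between 6.95% and 8.37%.

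At day 1 the order turned over. Klf6 was first at 134 ± 76.5 CPM per kb (SD, n = 5) and held between 40.8% and 60.2% of the summed Klf level in the 5 libraries, while Klf15 came after Klf6, Klf9, Klf10, Klf13, Klf11 and Klf4, with between 2.21% and 9.77%. By mean level Klf15 was 7th in the 1-digit libraries of day 1 (11.97 ± 3.92, SD, n = 3) and behind only Klf6 and Klf9 in the 3-digit ones (11.4 ± 2.88, SD, n = 2). The summed level of the 17 genes was between 106.7 and 121.6 CPM per kb at day 0. It was between 311.9 and 337.7 in the 3 day 1 libraries with 1-digit numbers and between 106.0 and 137.4 in the 2 with 3-digit numbers, so the sum overlapped day 0 in the latter. At day 3 Klf6 was still first at 45.5 ± 12.6 CPM per kb (SD, n = 5), with between 22.0% and 34.3% of the sum. Klf9 followed at 31.5 ± 11 and Klf15 at 28.7 ± 12.1, and the ranges of these 3 genes overlapped. These levels rest on the union of annotated exons, which is long for Klf3 at 11243 bases and short for Klf2 at 1847.

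**Figure D1:**
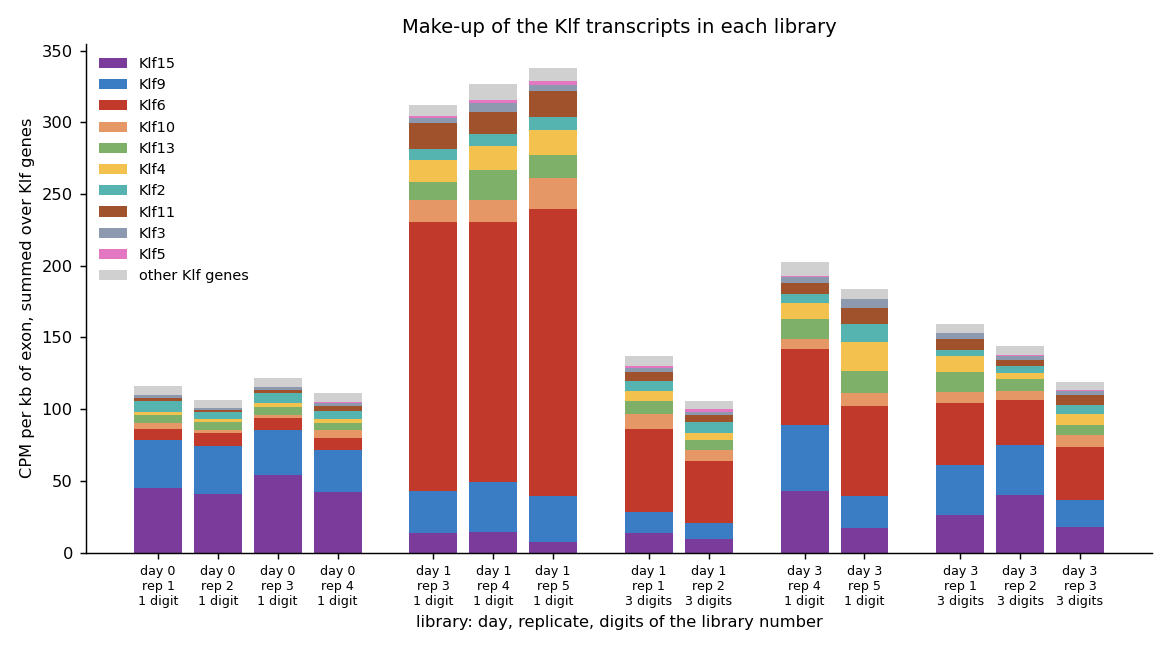
Levels of the Klf genes in each library as CPM per kb of exon, stacked by gene; libraries are ordered by day and by the digits of the library number. Klf15 and Klf9 fill most of each day 0 bar, Klf6 fills between 40.8% and 60.2% of each day 1 bar, and the day 1 bars are tall only for 1-digit numbers.

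Comparing day 1 with day 0 asks which members respond within a day of the injury. Of the 9 members, 6 rose and 1 fell at an adjusted p below 0.05 (edgeR's quasi-likelihood test, Benjamini-Hochberg over 14300 genes tested). Klf6, Klf4, Klf5, Klf10, Klf13 and Klf3 rose, Klf15 fell, and Klf2 and Klf9 did not pass the test. Calls were common in this comparison: 42.1% of all genes tested were called, 23.3% higher and 18.7% lower. The day 0 and day 1 values did not overlap for 6 of 9 members (Klf4, Klf5, Klf6, Klf10, Klf13 and Klf15), and for 42.0% of all genes. The median change over the 9 members was 1.21 on the log2 scale, against 0.0073 over all genes tested. The 9 were chosen with earlier results of these data known, so medians over them here and below describe these members and not the family. Counts of called members were 7 under each change of normalization, filter, strand column or test that was tried.

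At day 3 against day 0, 5 members rose (Klf6, Klf4, Klf10, Klf13 and Klf3) and the other 4 did not pass. Over all genes, 33.3% were called, 19.5% higher and 13.8% lower. The values did not overlap for 4 of 9 members (Klf4, Klf6, Klf10 and Klf13), against 33.4% of all genes. The median over the members was 0.95 on the log2 scale and 0.054 over all genes. The 2 comparisons with day 0 share the same 4 control libraries.

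From day 1 to day 3, Klf6 and Klf5 fell and Klf15 rose, so 3 of 9 members were called, against 15.9% of all genes (8.52% higher and 7.39% lower). The day 1 and day 3 values did not overlap for 2 members, Klf5 and Klf15, and for 7.61% of all genes. Without day 3 replicate 5 the count of called members was 5, and without any one of day 1 replicates 4 and 5 and day 3 replicates 1 and 3 it was 2.

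**Figure D2:**
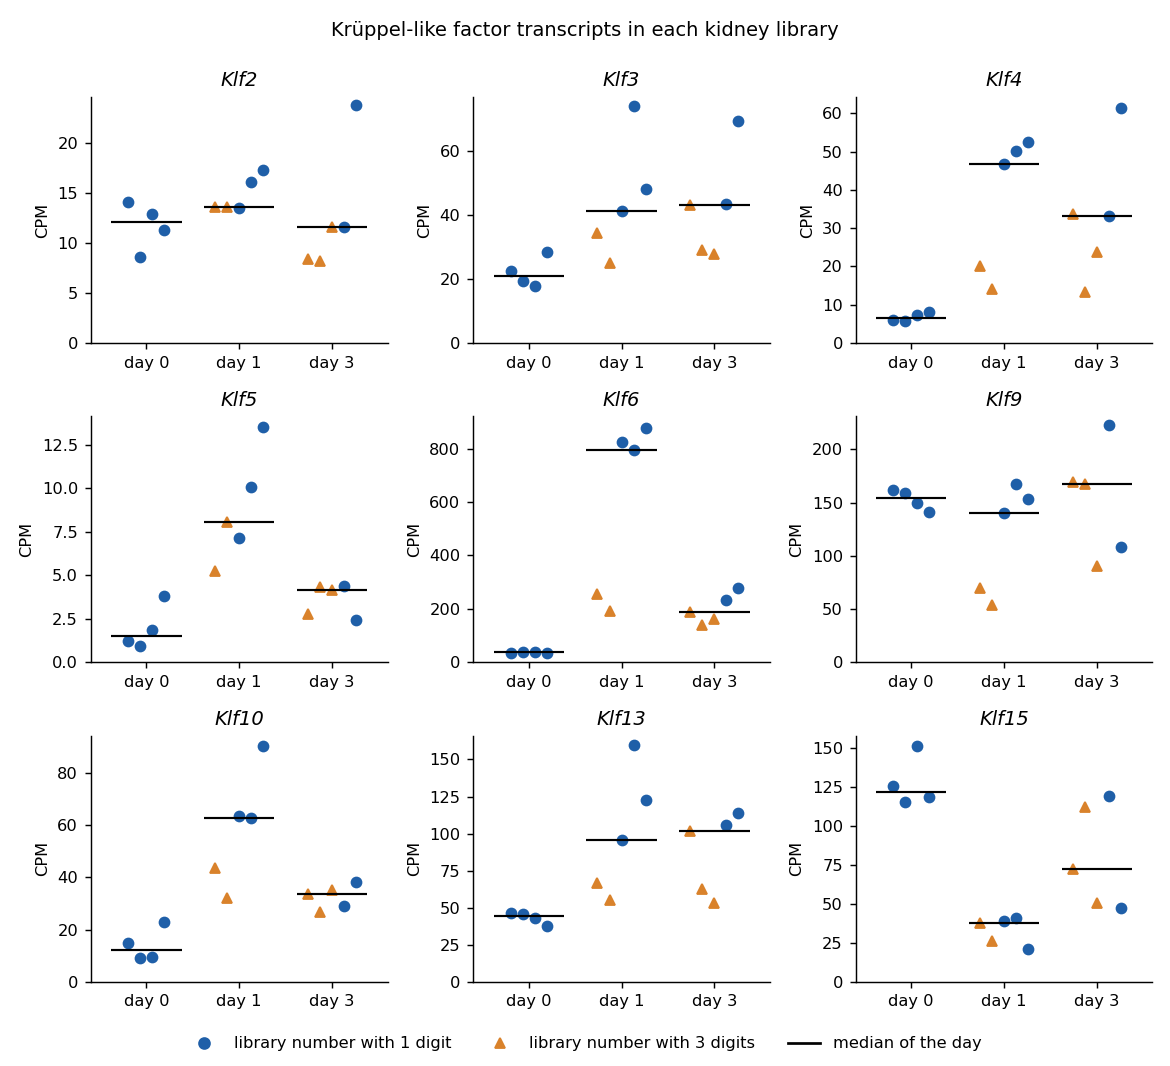
CPM of the 9 members in each library by day (linear axes from 0); circles are libraries with 1-digit numbers, triangles those with 3-digit numbers, and lines are the medians of each day. Klf6 lies between 35.3 and 39.2 CPM at day 0 and between 190.0 and 878 at day 1, with the 2 triangles lowest, whereas Klf15 falls from between 115 and 151 CPM to between 20.8 and 40.6.

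Klf6, a zinc finger activator that many cell types switch on soon after injury, had the largest change of the 9 members. The gene lies at chr13:5861482-5870394 on GRCm38. It was at 35.4, 39.2, 38.2 and 35.3 CPM in day 0 replicates 1 to 4. At day 1 it was at 256, 190.0, 824, 795 and 878 CPM in replicates 1 to 5. All 5 day 1 libraries stood far above day 0, and replicates 1 and 2, with 3-digit numbers, were much lower than the other 3. Day 3 held 189, 139, 161, 233 and 276 CPM, still above every day 0 library. On the log2 scale Klf6 rose by 3.99 ± 0.45 (SE, adjusted p = 3.41e-05) by day 1, and by 2.43 ± 0.42 (adjusted p = 0.000877) by day 3. From day 1 to day 3 it fell by 1.56 on the log2 scale (adjusted p = 0.0143, edgeR), although the ranges overlapped. That fall was not called with only the 3-digit libraries, at -0.45 (adjusted p = 0.0885), nor with the 2 days fitted alone (adjusted p = 0.0505); over its 10 alternatives the adjusted p ran from 3.93e-05 to 0.0885. Beside these values, the injured tubule markers Havcr1, Lcn2, Krt20 and Sox9 summed to between 92.4 and 123 CPM at day 0, between 885 and 5559 at day 1 and between 908 and 4545 at day 3, and all 4 rose at day 1. Unlike Klf6, their day 1 sum was higher in the 3-digit libraries. Only 1 of these 4 markers was called higher there, against 18.6% of all genes. The neutrophil markers summed to between 1.2 and 1.84 CPM at day 0, between 44.8 and 192 at day 1 and between 17.1 and 400.1 at day 3, and the 4 measured rose at both days, while 23.3% and 19.5% of all genes were called higher. The part of either cell type in the Klf6 values was not tested.

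Klf10, a repressor known as TGF-β-inducible early gene, rose at day 1 and remained raised at day 3. It lies at chr15:38291463-38300706. The 4 day 0 libraries held 14.8, 8.89, 9.54 and 23.0 CPM. The 5 at day 1 held 43.7, 32.0, 63.6, 63.0 and 90.3 CPM, and the 5 at day 3 held 33.5, 26.6, 35.1, 29.0 and 38.3. Both later days were above all of day 0, with the narrowest spread at day 3. Its fold change on the log2 scale came to 2.05 ± 0.32 (SE, adjusted p = 0.000318) at day 1 and 1.21 ± 0.31 (adjusted p = 0.0095) at day 3. The difference between day 3 and day 1 was -0.85 ± 0.28 (adjusted p = 0.0555), just short of the threshold. It passed in edgeR with the replicate number as a block (adjusted p = 0.0418) and in DESeq2 (adjusted p = 0.0221), and its adjusted p ran from 0.0221 to 0.659 over 10 alternatives.

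Of the 2 members known from endothelium, Klf4 rose and Klf2 did not pass; the difference between the genes was not tested. Klf2, which laminar blood flow induces in endothelium, lies at chr8:72319033-72321656. It was at 14.2, 8.65, 12.9 and 11.4 CPM at day 0 and at 13.6, 13.6, 13.6, 16.1 and 17.4 CPM at day 1. At day 3 it was at 8.40, 8.17, 11.6, 11.6 and 23.9 CPM. The 3 days overlapped, and only day 3 replicate 5 stood well above the rest. Its log2 change came to 0.33 ± 0.28 (adjusted p = 0.349) at day 1 and 0.11 ± 0.28 (adjusted p = 0.788) at day 3, and the latter was -0.23 without day 3 replicate 5. From day 1 to day 3 Klf2 did not pass (-0.22, adjusted p = 0.591), but without that library it fell by 0.60 (adjusted p = 0.0361).

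Klf4, an activator of endothelium, podocytes and differentiating epithelium that is best known from reprogramming to pluripotency, rose at both days. It lies at chr4:55527143-55532466. It was at 5.87, 5.59, 7.26 and 8.04 CPM at day 0 and at 20.2, 13.99, 46.9, 50.1 and 52.6 CPM at day 1. At day 3 it was at 33.7, 13.2, 23.8, 33.1 and 61.5 CPM. No library after injury fell to the level of day 0. Klf4 rose by 2.45 ± 0.46 (SE, adjusted p = 0.00108) at day 1 and 2.30 ± 0.46 (adjusted p = 0.00211) at day 3 on the log2 scale, and day 3 minus day 1 came to -0.15 ± 0.39 (adjusted p = 0.819).

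The 7 endothelial markers (Pecam1, Cdh5, Kdr, Tie1, Emcn, Egfl7 and Esam) summed to between 260 and 321 CPM at day 0, between 335 and 590 at day 1 and between 169 and 679 at day 3, and 2 of 7 were called higher at day 1, against 23.3% of all genes. Day 3 replicate 5, the library with the most Klf2 and Klf4, also had the highest endothelial sum, at 679 CPM. The 6 podocyte markers summed to between 283 and 358 CPM at day 0, between 334 and 451 at day 1 and between 295 and 503 at day 3. The part of either cell type in the Klf2 and Klf4 values was not tested.

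Klf5, an activator of proliferating epithelium, was the least abundant member and rose at day 1. It lies at chr14:99298691-99315036. It was at 1.21, 0.942, 1.83 and 3.81 CPM at day 0, on as few as 16 reads. At day 1 it was at 5.23, 8.08, 7.16, 10.1 and 13.5 CPM, above all of day 0, and at day 3 at 2.75, 4.34, 4.16, 4.37 and 2.42 CPM, below all of day 1. Against day 0, Klf5 rose at day 1 by 2.17 ± 0.41 (SE, adjusted p = 0.00114). The day 3 value was 0.89 ± 0.40 (adjusted p = 0.0974), which became 1.44 (adjusted p = 0.0134) without day 0 replicate 4. From day 1 to day 3 Klf5 fell by 1.28 (adjusted p = 0.0296, edgeR). This call was lost without day 1 replicate 4 or 5 or day 3 replicate 1 or 3, with adjusted p-values up to 0.0806, and with only the 3-digit libraries (adjusted p = 0.291). Day 0 replicate 4, the highest of its day, also held 49.0 CPM summed over 6 urothelial markers, against between 3.47 and 10.2 in the other 3. At day 1 these markers summed to between 5.09 and 96.4 CPM, with the highest sum in replicate 2, while Klf5 was highest in replicates 4 and 5, at 5.09 and 7.96 CPM of the markers. The part of urothelium in the Klf5 values was not tested. The 6 collecting duct markers summed to between 780 and 1052 CPM at day 0 and to between 365 and 778 at day 1, when Klf5 was higher.

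Klf15, an activator of amino acid breakdown and gluconeogenesis, fell at day 1 and was the only member called lower in the comparison of day 1 with day 0 over all libraries. It lies at chr6:90462576-90475238. It was at 125, 115, 151 and 118 CPM at day 0 and at 37.4, 26.1, 38.8, 40.6 and 20.8 CPM at day 1. Day 3 held 72.1, 112, 50.3, 119 and 47.1 CPM. The day 1 values lay below both other days in full, and day 3 replicates 2 and 4 were close to day 0 while replicates 3 and 5 were not. The gene fell by 1.96 on the log2 scale at day 1 (SE 0.28, adjusted p = 0.000194) and rose by 1.29 from day 1 to day 3 (SE 0.27, adjusted p = 0.00816). At day 3 against day 0 the change was -0.67 ± 0.28 (adjusted p = 0.0762). It passed without day 3 replicate 2 (-0.82, adjusted p = 0.0332) or replicate 4 (-0.85, adjusted p = 0.0347).

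Klf9, like Klf15 a glucocorticoid target and a repressor in many settings, did not pass the test at either day. It lies at chr19:23141226-23168134. It was at 162, 159, 149 and 141 CPM at day 0. At day 1 it was at 70.2, 53.5, 140.3, 168 and 153 CPM, with replicates 1 and 2 far below the other 3 and the other 3 within or beside the day 0 range. At day 3 it was at 169.6, 167, 90.6, 223 and 108 CPM, on both sides of day 0. The log2 change was -0.38 ± 0.32 (adjusted p = 0.344) at day 1 and -0.01 ± 0.32 (adjusted p = 0.983) at day 3.

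Klf13 and Klf3 rose at both days, by less than Klf6 and Klf4. Klf13, first described as an activator of Ccl5 in T lymphocytes, lies at chr7:63886351-63938915. It was at 46.6, 45.4, 42.7 and 37.6 CPM at day 0 and at 66.7, 55.1, 95.3, 159.9 and 122 CPM at day 1. Day 3 held 102, 62.4, 53.0, 106 and 114 CPM. All later values lay above day 0. The log2 fold change was 1.21 ± 0.30 (SE, adjusted p = 0.00598) at day 1 and 1.02 ± 0.30 (adjusted p = 0.0185) at day 3; the latter was 0.96 (adjusted p = 0.0525) without day 0 replicate 4.

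Klf3, a repressor that recruits the corepressor CtBP, lies at chr5:64803388-64832901 and shares its strand with the overlapping C230096K16Rik, so its reads are less certain. It was at 22.5, 19.4, 17.8 and 28.4 CPM at day 0 and at 34.4, 25.1, 41.2, 74.1 and 48.2 CPM at day 1. Its day 3 values were 43.1, 29.0, 27.9, 43.4 and 69.3 CPM. Both later days overlapped day 0 at their lowest values. The log2 fold change was 1.02 ± 0.31 (SE, adjusted p = 0.0188) at day 1 and 0.95 ± 0.31 (adjusted p = 0.0321) at day 3. Its calls were close to the threshold: the day 1 call was lost without day 0 replicate 2 or 3 or day 1 replicate 4, and the day 3 call without any one of day 0 replicates 1, 2 and 3 and day 3 replicates 1, 4 and 5, with adjusted p-values up to 0.0914 and log2 changes between 0.71 and 0.96 in these fits.

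**Figure D3:**
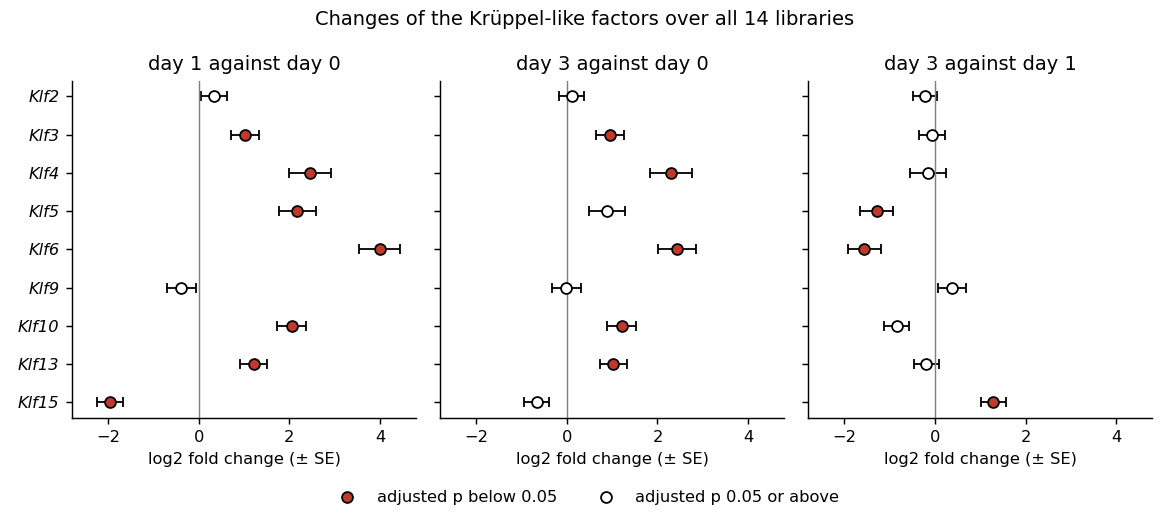
Log2 fold change of each member with its standard error in the 3 comparisons between days over all 14 libraries; filled points passed an adjusted p of 0.05. At day 1 Klf6 (3.99) lies farthest to the right and Klf15 (-1.96) is the only filled point left of 0, whereas from day 1 to day 3 Klf6 and Klf5 lie left and Klf15 right.

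Within day 1, 6 of 9 members were lower in the libraries with 3-digit numbers (Klf6, Klf4, Klf9, Klf13, Klf10 and Klf3), and Klf2, Klf5 and Klf15 did not pass. Over all genes 35.0% were called, 18.6% higher and 16.4% lower, and the median over the members was -0.93 on the log2 scale against 0.031 over all genes. Klf6 averaged 223 ± 46.9 CPM (SD, n = 2) in 3-digit libraries and 833 ± 42.1 (SD, n = 3) in 1-digit libraries, a log2 difference of -1.90 ± 0.18 (SE, adjusted p = 8.73e-05). Klf4 differed by -1.55 ± 0.35 (adjusted p = 0.00499), Klf9 by -1.31 ± 0.30 (adjusted p = 0.00542), Klf13 by -1.05 ± 0.26 (adjusted p = 0.00848), Klf10 by -0.93 ± 0.34 (adjusted p = 0.0481) and Klf3 by -0.88 ± 0.30 (adjusted p = 0.0388). Klf15 did not pass: it averaged 31.8 ± 8.05 CPM in 3-digit and 33.4 ± 10.9 in 1-digit libraries, a difference of -0.08 ± 0.39 (adjusted p = 0.901). Klf2 (-0.20 ± 0.28) and Klf5 (-0.62 ± 0.48) also did not pass. Without day 1 replicate 2, which leaves 1 library with a 3-digit number that is assumed to vary like the rest, Klf6 alone was called. The Klf3 call was also lost without day 0 replicate 1 or day 1 replicate 1, 4 or 5, and that of Klf10 without any one of 10 libraries (adjusted p up to 0.266 for Klf3 and 0.288 for Klf10). Cell markers differed between the same libraries. The 8 proximal tubule markers summed to between 2982 and 3451 CPM in 3-digit and between 8015 and 12638 in 1-digit libraries, and 4 of 8 were called lower in the former. The 4 injured tubule markers summed to between 5219 and 5559 against between 885 and 2841 CPM. Only 1 of these 4 was called higher in 3-digit libraries, and 2 of 4 had a positive change. All 5 smooth muscle markers were called higher in 3-digit libraries. The part of these cell types in the differences of the members was not tested.

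Within day 3, 3 members were lower in the libraries with 3-digit numbers. Klf2 (-0.92 ± 0.28, adjusted p = 0.0400), Klf4 (-1.0 ± 0.33, adjusted p = 0.0477) and Klf6 (-0.64 ± 0.16, adjusted p = 0.0207) were called, and the other 6 did not pass, against 18.5% of all genes called (10.3% higher and 8.22% lower). Klf2 averaged 9.38 ± 1.91 CPM (SD, n = 3) in 3-digit and 17.8 ± 8.65 (SD, n = 2) in 1-digit libraries. These 3 calls were lost without day 3 replicate 5, to -0.33 for Klf2, -0.51 for Klf4 and -0.53 for Klf6, without replicate 2 (adjusted p = 0.109, 0.117 and 0.0641) and when only the day 3 libraries were fitted (adjusted p = 0.198 for Klf2, 0.210 for Klf4 and 0.170 for Klf6). Dropping other single libraries also moved the adjusted p past the threshold for Klf4 (up to 0.107), Klf2 (up to 0.0577) and Klf6 (0.0560 without replicate 3). Without replicate 1, Klf13 (-0.93, adjusted p = 0.00639) and Klf3 (-0.98, adjusted p = 0.0272) were called as well. Leaving out replicate 4 or 5 leaves 1 library with a 1-digit number, which is assumed to vary like the rest. Without replicate 4 the Klf3 difference was -1.06. Over their alternatives the adjusted p-values ran from 0.0186 to 0.198 for Klf2, 0.0251 to 0.210 for Klf4 and 0.00274 to 0.170 for Klf6. Endothelial markers moved with them: 5 of 7 were lower in 3-digit libraries, where they summed to between 169 and 290 CPM, against between 392.4 and 679 in 1-digit libraries. The injured tubule markers, of which 1 of 4 was called lower, summed to between 908 and 2414 against between 3417 and 4545 CPM. The smooth muscle markers, of which 3 of 5 were called lower, summed to between 169 and 275 against between 628 and 874. Of the proximal tubule markers, 4 of 8 were called higher. The part of these cell types in the differences was not tested.

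Tested directly, the difference between 3-digit and 1-digit libraries changed from day 1 to day 3 for Klf6 by 1.26 ± 0.24 on the log2 scale (SE, adjusted p = 0.00401). Klf6 was the 1 member called, against 17.6% of all genes (9.10% higher and 8.45% lower). The same change was 1.10 ± 0.41 (adjusted p = 0.0816) for Klf9 and -0.71 ± 0.40 (adjusted p = 0.236) for Klf2. For Klf9 it passed in DESeq2 (adjusted p = 0.0401) and without day 3 replicate 3 or 4, and its adjusted p ran from 0.0401 to 0.0821 over 4 alternatives.

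The days were also compared within 1 kind of number. With only 1-digit libraries, 7 members were called at day 1 against day 0 (61.3% of all genes), 5 at day 3 against day 0 (56.3%) and 4 at day 3 against day 1 (36.0%). With only 3-digit libraries at days 1 and 3, set against the same day 0 libraries, 6 were called at day 1 (42.9% of all genes), 4 at day 3 (34.0%) and 2 from day 1 to day 3 (16.0%). Klf6 rose by 4.52 ± 0.12 (SE) in 1-digit and 2.6 ± 0.15 in 3-digit libraries at day 1, and Klf15 changed by -1.89 ± 0.32 and -2.0 ± 0.31. Klf15 also rose from day 1 to day 3 by 1.30 in both. Over that interval Klf10 was called with 1-digit libraries (-1.12 ± 0.36, adjusted p = 0.0340), and Klf9 with 3-digit libraries (1.2 ± 0.26, adjusted p = 0.0146). At day 3 against day 0, Klf3 was not called with 3-digit libraries (0.60 ± 0.21, adjusted p = 0.0530). Klf13 and Klf3 were called at day 1 with 1-digit libraries (1.58 ± 0.16 and 1.34 ± 0.24) but not with 3-digit libraries (0.50 ± 0.23, adjusted p = 0.104, and 0.44 ± 0.24, adjusted p = 0.166). Over 10 alternatives the adjusted p at day 1 ran from 2.13e-05 to 0.104 for Klf13 and from 0.00049 to 0.166 for Klf3. Klf9 was at 0.04 ± 0.20 with 1-digit libraries and fell by 1.30 (SE 0.25, adjusted p = 0.00292) with 3-digit libraries at day 1; its adjusted p ran from 0.00292 to 0.866. Day 0 has no 3-digit library, so for that kind the day and the number cannot be told apart.

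**Figure D4:**
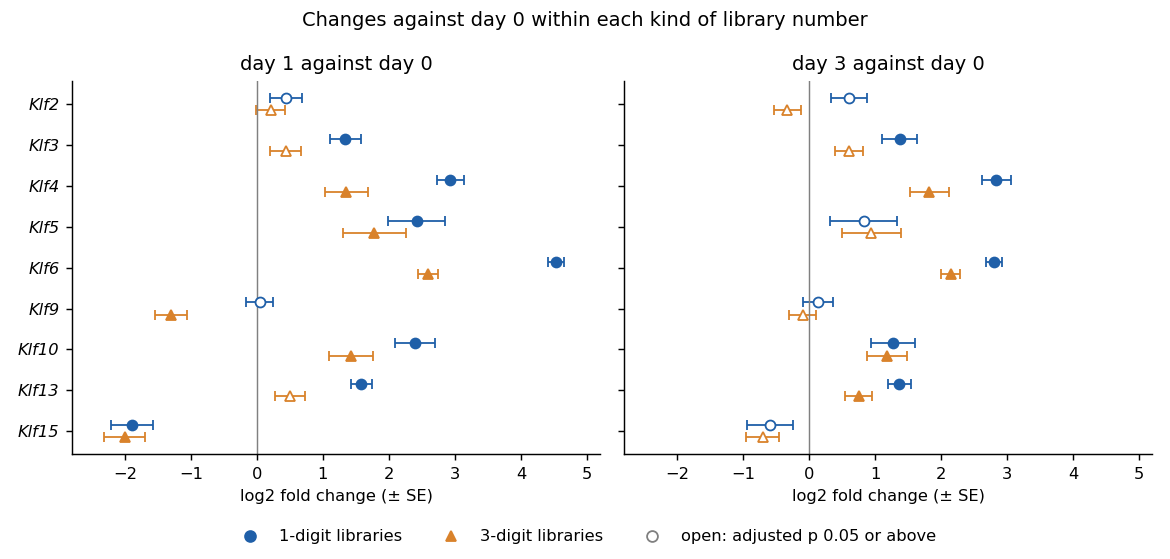
Log2 fold change against day 0 with standard errors, computed with only 1-digit (circles) or only 3-digit (triangles) libraries of days 1 and 3; open symbols did not pass an adjusted p of 0.05. At day 1 the triangles lie left of the circles for Klf2, Klf3, Klf4, Klf5, Klf6, Klf9, Klf10 and Klf13 and beside them for Klf15 (-1.89 and -2.0).

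Of the 8 other Klf genes, 5 passed the filter on low counts. At day 1 against day 0, Klf11, a relative of Klf10, rose by 2.52 ± 0.40 (SE, adjusted p = 0.000392) from 9.48 ± 2.87 CPM (SD, n = 4) to 54.3 ± 27.1 (SD, n = 5). Klf16 rose by 1.14 ± 0.20 (adjusted p = 0.000715). Klf12, a CtBP-binding repressor related to Klf3, fell by 1.57 (SE 0.20, adjusted p = 6.71e-05) from 16.8 ± 1.62 to 5.67 ± 0.895 CPM. Klf12 and Klf15 were thus the Klf genes called lower at day 1, and both were called higher from day 1 to day 3, Klf12 by 1.11 ± 0.19 (adjusted p = 0.00328). Klf16 fell by 1.04 over the same interval (adjusted p = 0.00424). At day 3 against day 0, Klf11 rose by 1.78 ± 0.39 (adjusted p = 0.0041). Klf7, on between 11 and 56 reads, rose by 1.26 ± 0.44 (adjusted p = 0.0392), a call lost without any one of day 0 replicates 1, 2 and 3 and day 3 replicates 4 and 5, with no filter (adjusted p = 0.0534) and with only 3-digit libraries (adjusted p = 0.104). At day 1 Klf7 did not pass (0.95 ± 0.44, adjusted p = 0.0930) but was called with only 1-digit libraries (1.36 ± 0.39, adjusted p = 0.0119). Within day 1, Klf11 (-1.55 ± 0.29, adjusted p = 0.00201) and Klf7 (-1.22 ± 0.44, adjusted p = 0.0451) were lower in 3-digit libraries. That Klf7 call was lost with no filter (adjusted p = 0.0539) and without any one of 8 libraries (adjusted p up to 0.173). Of the related Sp family, 6 of 9 genes passed the filter, and Sp2 rose at day 1 (0.82 ± 0.25, adjusted p = 0.0187). The Sp2 call was lost without day 0 replicate 3 (adjusted p = 0.0570) or day 1 replicate 4 (adjusted p = 0.0512), with the replicate block (adjusted p = 0.0513) and with only 3-digit libraries (adjusted p = 0.762). Sp1 (0.25 ± 0.14, adjusted p = 0.164) and Sp3 (0.24 ± 0.18, adjusted p = 0.291), the ubiquitous members, did not pass, but with only 1-digit libraries both were called (0.44, adjusted p = 0.00631, and 0.49, adjusted p = 0.0101), and with the number as a term (adjusted p = 0.0454 and 0.0386).

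Genes that act with or on the factors moved in part. Of 10 corepressors and coactivators, 2 rose and 1 fell at day 1, when 42.1% of all genes were called. Among the 3 most abundant, Sin3b, a corepressor scaffold, rose by 0.83 ± 0.20 (SE, adjusted p = 0.00438), Kat2b, an acetyltransferase, fell by 0.38 (adjusted p = 0.0226), and Ctbp1 was at 0.37 ± 0.14 (adjusted p = 0.0509), which passed in 6 alternatives, the unstranded column (0.0472), DESeq2's size factors (0.0497), DESeq2 (0.0297), the 2 days alone (0.0238), the number as a term (0.00235) and only 1-digit libraries (0.00461), and also without day 1 replicate 2 or day 3 replicate 2 or 5 (adjusted p between 0.0155 and 0.0472). Of 3 ubiquitin ligases that target KLF proteins, Wwp1 fell by 0.95 (SE 0.22, adjusted p = 0.00388) and Smurf1 and Fbxw7 rose (0.92 ± 0.22, adjusted p = 0.00459, and 0.45 ± 0.17, adjusted p = 0.0480). The Fbxw7 call was lost without any one of 10 libraries, and that of Kat2b without day 0 replicate 2, 3 or 4 or day 1 replicate 5, with adjusted p-values up to 0.125 and 0.0594. That of Fbxw7 was also lost with DESeq2's size factors (adjusted p = 0.0515), no filter (0.0778), the 2 days alone (0.0772), the replicate block (0.115) and only 3-digit libraries (0.13, adjusted p = 0.422). Wwp1 and Smurf1 held these directions at day 3 (-0.92, adjusted p = 0.00623, and 0.92, adjusted p = 0.00616). Of 6 genes of the ERK5 and MEF2 pathway that induces Klf2 and Klf4 in endothelium, 2 rose at day 1, again beside 42.1% of all genes called. Mef2d rose by 1.35 ± 0.27 (adjusted p = 0.00178), while Mef2a (0.52 ± 0.21, adjusted p = 0.0624) and Map3k3 (0.52 ± 0.22, adjusted p = 0.0647) did not pass. With only 1-digit libraries both were called (0.82, adjusted p = 7.31e-05, and 0.82, adjusted p = 0.000728), as with the number as a term (adjusted p = 0.000834 and 0.00266).

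Known targets of the endothelial members were called higher at day 1 in 3 of 3 cases among those that KLF2 and KLF4 induce and in 2 of 3 among those that they repress. Thbd, the thrombin receptor thrombomodulin, rose by 2.36 ± 0.55 (SE, adjusted p = 0.00406) from 20.6 ± 2.28 to 105.5 ± 38.4 CPM. S1pr1, a sphingosine phosphate receptor, rose by 1.52 ± 0.35 (adjusted p = 0.00406), and Nos3, endothelial nitric oxide synthase, by 1.53 ± 0.37 (adjusted p = 0.0051), so 3 of 3 induced targets rose, against 23.3% of all genes called higher. The endothelial markers summed to between 335 and 590 CPM at day 1 and between 260 and 321 at day 0, and their part in the values of these targets was not tested. Of the 3 repressed targets 2 rose, among them Edn1, the vasoconstrictor endothelin, by 3.16 ± 0.34 (adjusted p = 2.48e-05). Vcam1, an adhesion molecule, was at 1.17 ± 0.49 (adjusted p = 0.0686) at day 1, which passed in DESeq2 (adjusted p = 0.0324), with the 2 days alone (adjusted p = 0.0098) and with only 1-digit libraries (adjusted p = 0.00826). It rose by 1.48 ± 0.50 (adjusted p = 0.0341) at day 3, a call lost without any one of 5 libraries (adjusted p up to 0.0907), with the replicate block (adjusted p = 0.0570), with the 2 days alone (adjusted p = 0.0563), with the number as a term (adjusted p = 0.156) and with only 1-digit libraries (adjusted p = 0.269). At day 1 the medians were 1.53 for the induced and 3.16 for the repressed targets. At day 3 against day 0, 0 of 3 induced and 3 of 3 repressed targets were called higher, against 19.5% of all genes. Their day 3 medians were 0.95 and 2.45. The day 3 call of the repressed target Sele was lost with only 3-digit libraries (adjusted p = 0.0861).

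Of the 13 enzymes of branched-chain amino acid catabolism, a pathway linked to KLF6 in kidney injury, 10 fell at day 1 and 12 at day 3, against 18.7% and 13.8% of all genes called lower. Their medians were -1.08 and -1.19, against 0.0073 and 0.054 over all genes. Aldh6a1, an enzyme late in valine breakdown, fell by 1.08 (SE 0.38, adjusted p = 0.0327) from 1280.3 ± 12.1 to 604 ± 191 CPM, and Hibadh by 0.81 (SE 0.20, adjusted p = 0.00533). The Aldh6a1 call was lost without any one of 8 libraries (adjusted p up to 0.0624) and with the replicate block (-0.90, adjusted p = 0.111). Pccb, a propionyl-CoA carboxylase subunit, was at -0.35 ± 0.16 (adjusted p = 0.0921) at day 1, was called with only 3-digit libraries (-0.62, adjusted p = 0.00898), and fell by 0.78 at day 3 (adjusted p = 0.00264). The 13 genes summed to between 4345 and 4602 CPM at day 0, between 1696 and 3355 at day 1 and between 992 and 2810 at day 3. Of these enzymes, 4 were lower in the 3-digit libraries within day 1, as Klf6 was, against 16.4% of all genes. Within day 3, 8 were higher in them, against 10.3% of all genes. Proximal tubule markers moved the same way: 4 of 8 were lower in 3-digit libraries at day 1, with the sums given above, and 4 of 8 were higher in them at day 3, at between 5489 and 11404 against between 2032 and 3765 CPM. These counts within day 3 come from a comparison with 2645 genes called, but 73 with that day's libraries alone. The part of proximal tubule in the enzyme values was not tested. Of the 4 measured KLF15 targets in amino acid use and gluconeogenesis, Bcat2, the first enzyme of branched-chain breakdown, fell at day 1 (-1.24 ± 0.14, adjusted p = 3.46e-05) and at day 3 (-1.47 ± 0.14, adjusted p = 1.19e-05). Pck1, the rate-limiting enzyme of gluconeogenesis, was at -0.60 ± 0.44 (adjusted p = 0.280) at day 1, and Prodh, which breaks down proline, at -0.73 ± 0.40 (adjusted p = 0.156). At day 1 Pck1 was called lower with only 1-digit libraries (-1.37, adjusted p = 0.00512) and with the number as a term (-1.13, adjusted p = 0.0331), and Prodh with only 3-digit libraries (-1.62, adjusted p = 0.00218). Between days 1 and 3 Pck1, like Klf15, rose, by 1.53 ± 0.42 (adjusted p = 0.0266). It was the 1 called gene of the 4 over that interval, against 15.9% of all genes called (8.52% higher). This call was lost without any one of day 1 replicates 3, 4 and 5 and day 3 replicates 1, 3 and 4 (adjusted p up to 0.0653), with the 2 days alone (adjusted p = 0.0761) and with only 3-digit libraries (adjusted p = 0.110). The 5 listed KLF15 targets summed to between 3593 and 4210 CPM at day 0, between 1297 and 4727 at day 1 and between 3111 and 9165 at day 3, and Pck1 made up most of each sum.

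Among the glucocorticoid receptor and 5 responsive genes, 2 rose and 2 fell at day 1, beside 42.1% of all genes called, when the 2 glucocorticoid targets among the members were lower (Klf15) or did not pass (Klf9). Of the 3 most abundant, Tsc22d3 (GILZ) fell by 0.97 (SE 0.23, adjusted p = 0.00424), Sgk1 was at 0.95 ± 0.39 (adjusted p = 0.0622) and was called with only 1-digit libraries (1.43, adjusted p = 0.000206), with the number as a term (adjusted p = 0.000913) and in DESeq2 (adjusted p = 0.0327), and Fkbp5 was at 0.66 ± 0.36 (adjusted p = 0.149; 0.0478 with only 1-digit libraries) at day 1 and rose by 1.34 ± 0.36 (adjusted p = 0.0126) at day 3. Of the TGF-β pathway, which induces KLF10, Skil rose by 0.87 ± 0.23 (adjusted p = 0.0083) and Smad7, an inhibitor of the pathway, by 0.74 ± 0.16 (adjusted p = 0.00218) at day 1. The Skil value was 0.41 (adjusted p = 0.207) with only the 3-digit libraries. Ccl5, the chemokine gene that KLF13 activates, rose by 2.92 ± 0.99 (adjusted p = 0.0290) at day 1 and was at 1.67 ± 0.97 (adjusted p = 0.198) at day 3. Its level was low, between 0.46 and 0.71 CPM at day 0, between 0.91 and 7.89 at day 1 and between 0.050 and 6.83 at day 3. The day 1 call was lost without any one of 6 libraries (adjusted p up to 0.0729), with the replicate block (adjusted p = 0.0504) and with only 3-digit libraries (adjusted p = 0.262). The 4 T cell markers, of which 1 passed the filter on low counts, summed to between 1.24 and 2.24 CPM at day 0. At day 1, when Ccl5 and Klf13 were higher, they summed to between 0.216 and 1.21. The part of T cells in the Ccl5 and Klf13 values was not tested.

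The immediate early genes, which cells transcribe within minutes of a stimulus, were set beside Klf6, Klf10 and Klf4. All 11 rose at day 1 and 7 rose at day 3, against 23.3% and 19.5% of all genes called higher. The day 1 median was 3.60 on the log2 scale, against 0.0073 over all genes. Egr1 rose by 5.66 ± 0.96 (SE, adjusted p = 0.000579), Jun by 2.78 ± 0.61 (adjusted p = 0.00307) and Dusp1 by 1.62 ± 0.52 (adjusted p = 0.0227), although Dusp1 was at -0.20 with only the 3-digit libraries and lost its call without any one of day 0 replicates 1, 2 and 3 and day 1 replicates 3 and 5 (adjusted p up to 0.0588) and with the replicate block (1.17, adjusted p = 0.0905). Within day 1, 10 of the 11 were lower in the 3-digit libraries, against 16.4% of all genes, and Egr2 was higher. Their sum was between 179 and 239.7 CPM at day 0, between 1935 and 3571 in the 1-digit and between 396 and 561 in the 3-digit libraries of day 1, and between 235 and 625 at day 3. The 2 kinds of day 1 library were thus apart in these genes and in Klf6 alike, and day 1 3-digit and day 3 libraries overlapped in both.

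**Figure D5:**
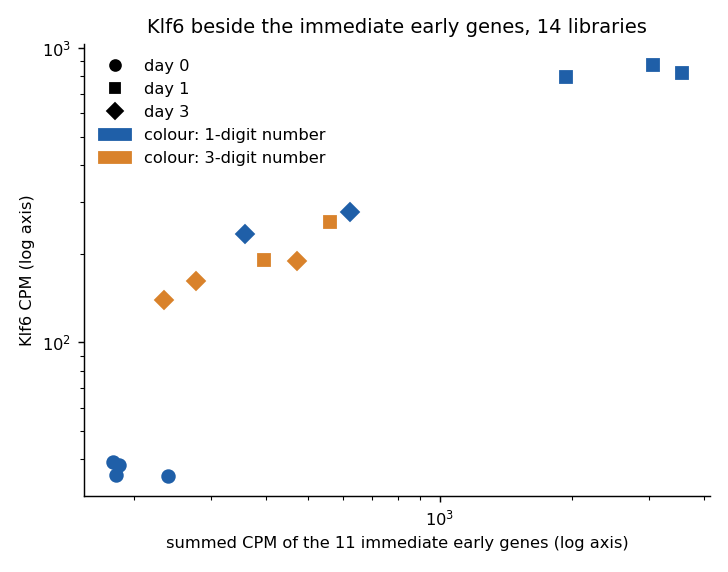
Klf6 CPM against the summed CPM of 11 immediate early genes in each of 14 libraries (both axes logarithmic); symbols give the day and colours the digits of the library number. The 3 day 1 libraries with 1-digit numbers lie at the top right, between 795 and 878 CPM of Klf6, the 2 with 3-digit numbers lie among the day 3 libraries, and the 4 day 0 libraries lie at the bottom left.

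For each member, the genes with the most similar pattern were found by Pearson's r of log2 CPM over the 14 libraries, which share the 3 days and the 2 kinds of number. Klf4 was most like Serpinb1a (r = 0.989), Arrdc4 (0.987) and Smurf1 (0.975). Klf13 was most like Xrn2, Tor1b and Wdr26 (all 0.984), and Klf6 most like the chemokine gene Cxcl2 (0.982), Ccdc120 (0.978) and Sbno2 (0.977). Klf15 was most like Abca8a (0.971), Gpr135 (0.955) and Lysmd4 (0.952), which were also lowest at day 1. Klf3 was most like Bmp2k (0.966), Spata6 (0.961) and C77080 (0.958), and Klf10 most like Hspb1, Ackr4 (both 0.965) and the immediate early gene Egr1 (0.964). The values were lower for Klf5, with Usp27x (0.942), Zfp948 (0.926) and Gar1 (0.917), for Klf9, with Mocs2 (0.923), Rmnd5a (0.922) and Zc3h12c (0.906), and for Klf2, with Esm1 (0.888), Arap3 (0.888) and Tnfrsf26 (0.869). Esm1 is an endothelial gene. Between members, r was 0.928 for Klf6 and Klf10, 0.924 for Klf3 and Klf13, 0.918 for Klf6 and Klf4, and -0.821 for Klf10 and Klf15, while Klf9 and Klf4 were at 0.0171.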

How the data were processed

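Total RNA was extracted with TRIzol and sequenced from TruSeq libraries, 4 at day 0 and 5 each at days 1 and 3. Per the labels, the authors trimmed reads with Trimmomatic and aligned them with STAR to mm10; the annotation and versions are not given in the sources used here. The deposited files are raw counts per gene and library in 3 columns, unstranded and by strand. The last strand column held between 98.5% and 98.7% of stranded gene reads and was used, so antisense genes that overlap Klf3 or Klf13 do not add reads. Rows that name no gene, between 29.0% and 38.3% of reads, were left out. No 2 libraries of a day agreed within sampling noise.

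With edgeR 4.0.16 (R 4.3.3), genes passing filterByExpr by day (14300) were scaled by TMM and tested with the quasi-likelihood F test in 1 fit over 14 libraries, with 1 term for each day, and Benjamini-Hochberg adjustment at 0.05. A second fit had 1 term for each day and kind of library number. SE is the absolute log2 fold change over the root of F. Log2 CPM used a prior count of 2. Tested on simulated data for day 1 against day 0, it recovered 175 of 198 genes changed by 2 on the log2 scale with 14 false calls of 189. The second fit recovered 156 of 198 between kinds of number at day 1 and 136 of 198 for the change of that difference, each with 4 false calls. Alternatives were the unstranded column, DESeq2 1.42.0 and its size factors, no filter, a replicate block, the number as a term or 1 kind of number, the 2 days alone, a change of at least 1, and each library left out. Positions are from GENCODE M21 on GRCm38 and promoters from RefSeq on GRCm38.p6. The members and gene lists were chosen with earlier results of these data known. Named genes are the members, called Klf and Sp relatives, the 3 most alike genes of each member and up to 3 of each list by mean CPM. A gene of the TGF-β list, and with it the count over that list, is not reported here. All 9 members passed the filter. Read counts of the members ranged from 16 for Klf5 to 13915 for Klf6.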

Additional observations from a re-analysis of the deposited data

Results flagged for a closer look

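The difference of Klf6 between 3-digit and 1-digit libraries was not the same at the 2 days. It was -1.90 on the log2 scale at day 1 and -0.64 at day 3, a change of 1.26 that was drawn out because a test of the change itself passed (adjusted p = 0.00401, edgeR's quasi-likelihood test; adjusted p between 3.51e-06 and 0.00405 over 4 alternatives, and 0.0026 to 0.0225 when single libraries were dropped). Klf2 was at 23.9 CPM in day 3 replicate 5 and between 8.17 and 11.6 CPM in the other 4 libraries of that day, a gap of 0.779 of the whole range, above Dixon's limit for 5 samples. It was the only one of the 27 groups of 9 members and 3 days marked on the CPM scale, where chance marks about 1.35, and none was marked on the log2 scale.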

How the results depend on the processing

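Across the members' values that passed the test, 189 kept and 10 lost the call under the settings other than leaving out a library, and 295 kept and 55 lost it with 1 library left out; none changed sign. Changes of sign were otherwise of values that had not passed, except Dusp1. Against day 0 at day 1, with only 1-digit libraries, Klf9 was at 0.043; with only 3-digit libraries, Sp1 was at -0.016, Sp3 -0.17, Mef2a -0.017, Map3k3 -0.00095, Sgk1 -0.19, Pck1 0.12 and Dusp1 -0.20. At day 3, Klf2 was at -0.14 with the replicate block and -0.33 with only 3-digit libraries, and Klf9 at 0.47 with the number as a term and 0.13 with only 1-digit libraries. From day 1 to day 3, with the number as a term, Klf3 was at 0.11, Klf4 at 0.19 and Klf13 at 0.026; with only 1-digit libraries, Klf2 was at 0.16 and Klf3 at 0.031; and with only 3-digit libraries, Klf3 was at 0.16, Klf4 at 0.47 and Klf13 at 0.25. The cause was not tested.

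Genes called at day 1 numbered 6020, and 2963 with a change of at least 1. At day 3 they numbered 4757, 8119 with only 1-digit libraries and 2597 with a change of at least 1. From day 1 to day 3 they numbered 2276, 831 with the 2 days alone, 5194 with only 1-digit libraries and 921 with a change of at least 1. Between kinds of number within day 3 they numbered 2645, and 73 with that day's libraries alone, when 0 members were called. DESeq2 called 2 members for the change of the number difference, Klf6 and Klf9. With 1 library left out, genes called ranged from 1269 to 3350 from day 1 to day 3, 1997 to 5602 between kinds of number at day 1, 91 to 4771 at day 3 and 1260 to 3148 for the change; members called ranged from 2 to 5, 1 to 6, 0 to 4 and 1 to 3. Member values ranged at day 3 from -0.19 to 0.10 for Klf9 and -0.23 to 0.23 for Klf2; from day 1 to day 3 from -0.34 to 0.19 for Klf3, -0.34 to 0.042 for Klf13 and -0.52 to 0.051 for Klf4; between kinds of number from -0.37 to 0.16 for Klf15 at day 1, and at day 3 from -0.27 to 0.11 for Klf10, -0.67 to 0.40 for Klf9, -0.63 to 0.73 for Klf15 and -0.24 to 0.63 for Klf5.

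Deviations from the day mean correlated at r between -0.175 and 0.261 for replicates with the same number in different days. For those with different numbers r was between -0.499 and 0.534. With 4 or 5 pairs of the same number for any 2 days, these values cannot decide whether such replicates are paired. With the replicate block 5162, 4103 and 2044 genes were called in the 3 comparisons of days, and 7, 5 and 4 members. Depth limits Klf8, Klf7 and Klf5, the tested Klf genes with the fewest reads, and the groups of 2 libraries limit the comparisons by number.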

Other observations

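Klf1, the erythroid member of the family, did not pass the filter on low counts over all libraries and was singled out after its values were seen. With only 1-digit libraries it passed the filter and was called higher at day 3 against day 0 (3.13, adjusted p = 0.00959). There it was also called higher at day 3 against day 1 (3.20, adjusted p = 0.0242). The day 3 libraries of that kind held 6.32 and 0.514 CPM. It was at 6.32 CPM in day 3 replicate 4 and 2.85 in day 3 replicate 1, and at 0.80 or less in the other 12 libraries. The erythroid enzyme gene Alas2 averaged 7.47 ± 5.85 CPM (SD, n = 5) at day 3 and 11 ± 3.39 (SD, n = 4) at day 0, and the globin genes Hba-a1, Hba-a2, Hbb-bs and Hbb-bt were listed at 0 in all 14 libraries. Klf14 was listed at 0.114 CPM or less, Klf17 at 0, and Klf8 at between 0.377 and 1.77 CPM.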
